A study of Homo sapiens with 4 samples.

Results

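The box H/ACA small nucleolar RNAs examined here are the genes whose annotated symbol starts with SNORA, 101 of the 19951 genes named on the arrays, read by 102 probes. They were measured in the established line H9 (WA09), which was derived from a human embryo and is pluripotent, in 4 passage groups that differ in time in culture and carry no treatment or genetic change in the labels. P1 is H9 at passages in the 40s, P2 in the 100s, P3 in the 200s and P4 in the 300s. Biotin-labelled cRNA of each group, not the RNA itself, was hybridised to 1 Illumina bead array. There is thus no spread between replicates, no p-value is given, and every difference below compares 2 arrays of 1 line.

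Box H/ACA snoRNAs are short nuclear RNAs that fold into hairpins and guide the conversion of uridine to pseudouridine, mainly in ribosomal RNA. Each works in a particle with 4 proteins, the pseudouridine synthase dyskerin (DKC1), NHP2, NOP10 and GAR1. In human cells nearly all of them are cut out of introns, so a snoRNA and the spliced transcript of its host gene come from one precursor. Typical hosts encode ribosomal proteins and translation factors, or are non-coding RNAs named for this role (the small nucleolar RNA host genes, SNHG). Many hosts begin transcription at a C followed by a run of pyrimidines, the terminal oligopyrimidine start, which places their messages under translational control by growth signals.

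A host was found for 100 of the 101 SNORA genes as the shortest gene whose annotated span holds the snoRNA in RefSeq on GRCh38.p14, which gave 75 distinct hosts. Small RNA genes and genes with LOC symbols were left out, and read-through genes were used only where no other was found. The table used has no strand, and 14 SNORA genes lie in the span of several genes. SNORA13, for example, lies within both EPB41L4A-AS1 and EPB41L4A. RefSeq promoter windows were matched for 59 of the 75 hosts. Of these 59, 18 (30.5%) had a start made of C followed by at least 4 further C or T bases at the annotated first base, against 5.14% of all 27305 genes with a window. The sequences below show 40 bases before and 20 after the annotated start, 5′ to 3′ on the gene's strand, for the 11 hosts with a window among those of the 13 SNORA genes at least 2-fold apart over the arrays. Capitals mark the pyrimidine run where there is one. The first 5 hosts carry the run and the last 6 do not.
SNHG12: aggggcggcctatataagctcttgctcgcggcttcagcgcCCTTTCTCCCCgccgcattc
RPL10: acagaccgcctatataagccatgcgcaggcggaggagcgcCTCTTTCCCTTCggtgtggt
RPL27A: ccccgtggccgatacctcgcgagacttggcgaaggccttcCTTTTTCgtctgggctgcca
EEF1B2: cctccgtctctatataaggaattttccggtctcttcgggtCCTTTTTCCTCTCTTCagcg
TAF1D: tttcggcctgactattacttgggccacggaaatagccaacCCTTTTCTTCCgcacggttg
CWF19L1: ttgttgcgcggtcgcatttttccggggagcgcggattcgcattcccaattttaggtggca
URB1: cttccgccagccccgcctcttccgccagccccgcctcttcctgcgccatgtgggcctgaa
ATP2B4: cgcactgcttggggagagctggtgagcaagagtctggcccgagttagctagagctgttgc
GTF2A1: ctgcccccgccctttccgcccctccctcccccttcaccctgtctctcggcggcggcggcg
EPB41L4A-AS1: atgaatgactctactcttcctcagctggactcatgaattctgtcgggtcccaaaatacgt
HTR2C: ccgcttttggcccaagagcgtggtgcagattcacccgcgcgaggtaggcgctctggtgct
In GRCh38.p14 these windows are chr1:28581854-28581913 (minus strand) for SNHG12, chrX:154398337-154398396 (plus) for RPL10, chr11:8682752-8682811 (plus) for RPL27A and chr2:206159855-206159914 (plus) for EEF1B2. Those of TAF1D, CWF19L1, URB1 and ATP2B4 are chr11:93741476-93741535 (minus), chr10:100267619-100267678 (minus), chr21:32392993-32393052 (minus) and chr1:203626792-203626851 (plus). Those of GTF2A1, EPB41L4A-AS1 and HTR2C are chr14:81220940-81220999 (minus), chr5:112160486-112160545 (plus) and chrX:114584046-114584105 (plus). RPL10 has 3 annotated starts and EEF1B2 has 2, and the one with the run is shown. GTF2A1 has 2 starts, both without the run, and 1 is shown. A run in these letters is a description of the annotated start, not evidence of how the gene was regulated in these cells.

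A probe was counted as detected where its quantile-normalized intensity reached 38.4 units, the 60th percentile of all probes, on at least 1 array. By this limit 59 of the 101 SNORA genes were detected and 42 were not. The detected genes numbered 49 in P1 and 48, 50 and 45 in P2, P3 and P4, and 39 reached the limit on all 4 arrays. Their signals were low for this platform, with a median of the mean signals of 102 against 368 over all detected genes. Of the 42 undetected genes 22 had a background-subtracted signal below 0 on at least 1 array. SNORA RNAs of this set are 121 to 250 nt long in RefSeq, and the median length was 134 nt for detected and 133.5 nt for undetected genes. Whether a probe read the mature snoRNA, its precursor or the unspliced host transcript was not tested. Signals of different probes are not comparable as amounts, so levels are compared below between arrays for 1 gene at a time.

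Markers of pluripotency were present on every array. All 9 pluripotency markers on the array were detected in every group, with POU5F1 between 4110 and 5467, and their summed signal lay between 60102 in P1 and 67749 in P4. PAX6, SOX1, TBXT, MIXL1, SOX17, GATA4, COL3A1 and LUM were under the limit on every array. Other lineage markers were not. Among 7 neuroectoderm markers 4 were detected in P3 and 3 in each other group, with summed signals of 3591, 4147, 4122 and 4389 from P1 to P4. NES, OTX2 and DCX reached the limit on every array, and MAP2 in P3 only, at 80.4. Among 8 mesoderm markers 1, KDR, was detected in each group. FOXA2, an endoderm marker, reached the limit in P3 only, at 92.6. Of the 7 endoderm markers 2 were detected in P3 and 1 in each other group, with summed signals of 79.3, 261, 245 and 112 from P1 to P4. AFP, which encodes alpha-fetoprotein, led this list and read 61.0 in P1 and 212, 112 and 86.1 in P2, P3 and P4, highest on the same array as many SNORA genes, and its part in their differences was not tested. Fibroblast and matrix genes had 6 of 10 members detected in each group, with summed signals of 9458 in P1 and 10205, 17450 and 17035 in P2, P3 and P4. LGALS1, TIMP1 and COL1A1 of this list were at least 2-fold apart over the arrays. LGALS1 read 931 in P1 and 1136, 3108 and 2170 in P2, P3 and P4. TIMP1 read 3031, 2713, 6682 and 5982 in the same order, and COL1A1 466, 708, 808 and 944.

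Over the 4 passage groups, 12 of the 39 SNORA genes at the limit on every array (30.8%) differed by at least 2-fold between their lowest and highest array. That compares with 8.67% of the 10642 genes at the limit on every array and 15% of the 3901 of those whose mean signal lay in the middle range of the detected SNORA genes (41.7 to 289 units). Another 17 differed by 1.5-fold to 2-fold and 10 by less. The median ratio of highest to lowest was 1.78, beside 1.34 for all genes at the limit on every array and 1.48 for those of similar signal. The remaining 20 detected SNORA genes were under the limit on 1 to 3 arrays, so their ratios are lower bounds. The bound of SNORA79 reached 2-fold, and for the other 19 a difference of 2-fold is neither shown nor excluded.

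The order of the arrays was read for the 39 SNORA genes at the limit on all 4, since values under the limit have no order. P2 held the highest signal of 20 of them (51.3%), against 30.8% of all genes at the limit on all 4 arrays and 30.5% of those with similar signal. P4 held the highest signal of 2 (5.13%), against 20.6% of all such genes and 20.5% of those with similar signal. P4 held the lowest signal of 19 (48.7%), against 20.4% of all and 22% of those with similar signal. P1 held the lowest signal of 14 (35.9%), against 33.6% and 30.5% in turn. Among the 13 genes at least 2-fold apart, 8 were highest in P2 and 5 in P1, and none in P3 or P4. These include SNORA79, which was under the limit in P2 and P4 and highest in P1. The matching shares over all genes at least 2-fold apart were not computed, so this split has no background beside it.

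**Figure D1:**
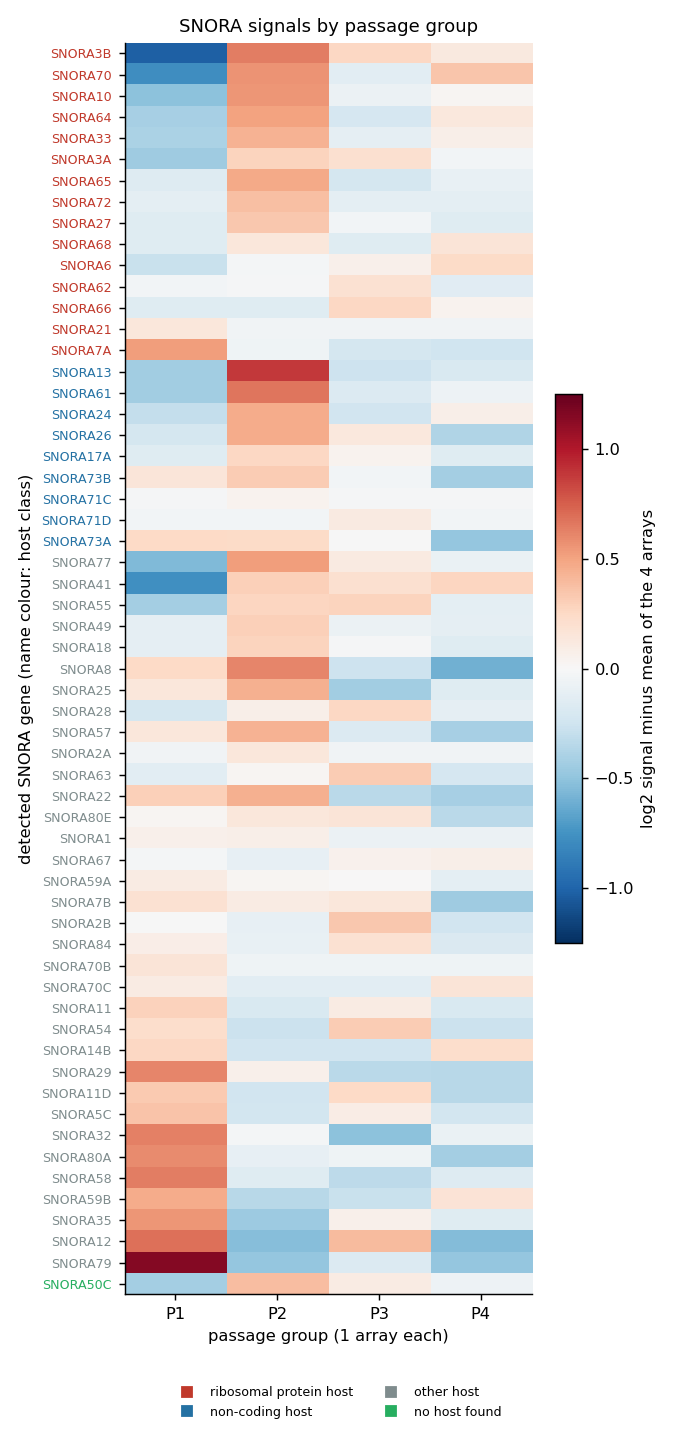
The heat map has a row for each of the 59 detected SNORA genes and a column for each passage group (1 array each); colour is the log2 signal, floored at 38.4 units, minus the gene's mean over the 4 arrays, and the colour of a name gives the class of its host gene. Of the genes at the limit on all 4 arrays, P2 is the highest for 7 of 10 with ribosomal protein hosts, 5 of 6 with non-coding hosts and 7 of 22 with other hosts.

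Setting P2 beside P1, 7 of 57 detected SNORA genes had a signal at least 2-fold higher in P2, and 3 a signal lower by 2-fold or more. That is 12.3% higher and 5.26% lower, against 2.18% and 2.19% over all 11804 detected genes and 4.02% and 3.98% among genes of similar signal. The median log2 difference of the SNORA genes was 0.15, and that of all detected genes 0.03. A gene detected on 1 array of a pair has its direction set by the limit, so directions were counted over genes at the limit on both. In P2 against P1 these were 40 SNORA genes, 26 above and 14 below 0 with a median of 0.21, while 53.3% of all such genes were above 0. The corresponding medians were 0.15 for 47 SNORD genes (box C/D snoRNAs) and -0.80 for 11 SCARNA genes (small Cajal body RNAs), whose difference from the SNORA genes has no test with single arrays.

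SNORA3B, encoded in the ribosomal protein gene RPL27A, had the largest difference of the genes higher in P2. It read 59.9 in P1 and 188, 145 and 132 in P2, P3 and P4, and was 3.14-fold higher in P2 than in P1. P1 was the one low array.

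SNORA70, from the ribosomal protein gene RPL10, read 197 in P1 and 499, 307 and 430 in P2, P3 and P4. It was 2.53-fold higher in P2 and 2.19-fold higher in P4 than in P1, with P3 between. Near-identical copies of this RNA exist as SNORA70B and SNORA70C, so its probe could share signal with them.

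SNORA13, located in the non-coding EPB41L4A-AS1, read 40.1 in P1 and 100, 45.3 and 47.5 in P2, P3 and P4. It was 2.50-fold higher in P2 than in P1 and 2.21-fold lower in P3 than in P2, so P2 stood alone. The other arrays were close to the detection limit.

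SNORA61, from the non-coding host SNHG12, read 772 in P1 and 1655, 922 and 994 in P2, P3 and P4. The 2.15-fold difference between P2 and P1 rests on signals far above the limit, and here too P2 was the one high array.

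SNORA10, from the ribosomal protein gene RPS2, read 199 in P1 and 414, 270 and 289 in P2, P3 and P4, a 2.08-fold difference of P2 from P1. SNORA41, from the elongation factor gene EEF1B2, read 59.8 in P1 and 124, 117 and 122 in P2, P3 and P4, and was 2.08-fold higher in P2 and 2.04-fold higher in P4. SNORA77, from the calcium pump gene ATP2B4, read 42.9 in P1 and 90.4, 68.0 and 59.3 in P2, P3 and P4, 2.11-fold higher in P2. For SNORA41 the P1 array was the low one, whereas SNORA10 and SNORA77 peaked in P2.

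The 3 genes at least 2-fold lower in P2 than in P1 were SNORA79, SNORA12 and SNORA35. SNORA79, from the general transcription factor gene GTF2A1, read 119 in P1 and 18.6, 47.8 and 14.5 in P2, P3 and P4. It was under the limit in P2 and P4, at least 3.11-fold lower than in P1 in each, and 2.50-fold lower in P3. Of the 4 arrays P1 was the one high array.

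SNORA12, from CWF19L1, read 1304 in P1 and 557, 1059 and 554 in P2, P3 and P4. It was 2.34-fold lower in P2 and 2.35-fold lower in P4 than in P1, while P3 lay near P1, so its order did not follow passage number. SNORA35, a snoRNA known from brain and encoded in the serotonin receptor gene HTR2C, read 123 in P1 and 61.4, 88.1 and 76.0 in P2, P3 and P4, a 2.01-fold difference of P2 from P1. The probe of HTR2C itself was under the limit on all 4 arrays.

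**Figure D2:**
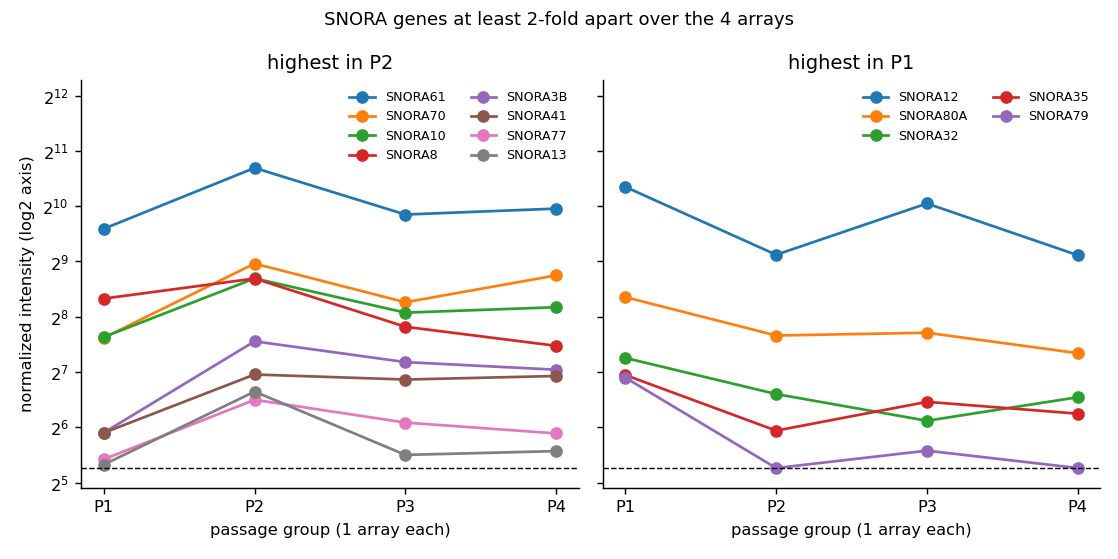
The plot shows the normalized intensity (log2 axis, values under 38.4 units drawn at that limit, dashed line) of the 13 SNORA genes at least 2-fold apart over the 4 arrays, by passage group with 1 array each. The 8 genes of the left panel have their highest point in P2, and the 5 of the right panel in P1.

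In P3 against P1, 1 of 55 detected SNORA genes was at least 2-fold higher and 2 lower by that much, against 1.95% and 1.6% of all detected genes and 3.34% and 2.92% of those with similar signal. SNORA3B was the higher one, at 2.42-fold. SNORA79 was one of the lower, and SNORA32 the other, a snoRNA of TAF1D that read 153 in P1 and 97.2, 69.5 and 93.4 in P2, P3 and P4 and was 2.20-fold lower in P3. The SNORA median was 0.06, beside 0.02 over all detected genes. Of 44 SNORA genes at the limit on both arrays 23 were above 0.

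In P4 against P1, 3 of 52 detected SNORA genes passed 2-fold upwards and 3 downwards, against 1.82% and 1.23% of all detected genes and 3.28% and 2.32% of those with similar signal. SNORA3B (2.20-fold), SNORA70 and SNORA41 were the higher ones. SNORA12, SNORA79 and SNORA80A were the lower. SNORA80A, from URB1, a ribosome biogenesis factor gene, read 328 in P1 and 202, 210 and 162 in P2, P3 and P4, 2.02-fold lower in P4, with all later arrays below P1. The SNORA median was -0.17, beside 0.03 over all detected genes. Of 42 SNORA genes at the limit on both arrays 17 were above and 25 below 0, while 53.6% of all such genes were above. P1 is the common array of these 3 comparisons, so an error in its reading enters all of them.

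Between neighbouring later groups few differences passed 2-fold, and for so few genes these counts are near the shares of all genes. In P3 against P2, SNORA13 was the 1 gene of 55 at least 2-fold lower and none was at least 2-fold higher, against 1.05% and 2.09% of all detected genes and 1.82% and 3.6% of those with similar signal, and the SNORA median was -0.18. Of 43 SNORA genes at the limit on both arrays 14 were above and 29 below 0, while 46.7% of all such genes were above. In P4 against P3 none of 53 was at least 2-fold higher or lower, against 1.34% and 0.764% of all detected genes and 2.48% and 1.45% of those with similar signal. The median was -0.14, beside -0.00 over all detected genes. Of 42 SNORA genes at the limit on both arrays 15 were above and 27 below 0, while 49.0% of all such genes were above. Of the 20 single differences of at least 2-fold in these 5 comparisons, 13 were under 2-fold when an offset of 50 units was added in place of the floor, which by construction shrinks the folds of low signals. The 7 that stayed past 2-fold were SNORA61, SNORA70 and SNORA3B in P2 against P1, and SNORA12 and SNORA79 in both P2 and P4 against P1.

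SNORA genes in ribosomal protein and non-coding hosts at the limit on both arrays were mostly higher in P2 than in P1, while those in other genes were divided. These classes of host were defined after the values had been seen and get no test. Of 17 SNORA genes in ribosomal protein genes 15 were detected, of 18 in non-coding snoRNA hosts 9, and of 65 in other genes 34. In P2 against P1 the 10 with ribosomal protein hosts at the limit on both arrays had a median log2 difference of 0.78, with 9 above 0. The 6 in non-coding hosts had a median of 0.72 with 5 above 0. The 23 in other hosts had a median of -0.07 with 11 above and 12 below 0. Among all genes at the limit on both arrays 53.3% were above 0. In P4 against P1 the medians were 0.49, 0.05 and -0.30 in the same order, with 8 of 10, 3 of 6 and 5 of 25 above 0, against 53.6% of all such genes.

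By the start of the host instead, 16 SNORA genes at the limit on both arrays had a host with the pyrimidine run, and their median in P2 against P1 was 0.37, with 15 above 0 and 4 at least 2-fold higher. The 19 whose host has a window without the run had a median of -0.09, with 7 above 0 and 2 at least 2-fold higher. Among all 10888 genes at the limit on both arrays 53.3% were above 0 and 215 at least 2-fold higher. In P3 against P2 the medians were -0.38 and -0.02, with 3 of 17 and 10 of 21 above 0, against 46.7% of all such genes. In P4 against P1 they were 0.02 and -0.32, with 8 of 16 and 6 of 20 above 0, against 53.6%. This split overlaps that by host class. The ribosomal protein hosts RPSA, RPL10, RPL27A, RPS12, RPL12 and RPL21 carry the run, and RPL32 does not. TAF1D carries it and holds 5 detected SNORA genes. Several of these RNAs share a host, so they are not independent of each other, and RPS2 had no window.

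**Figure D3:**
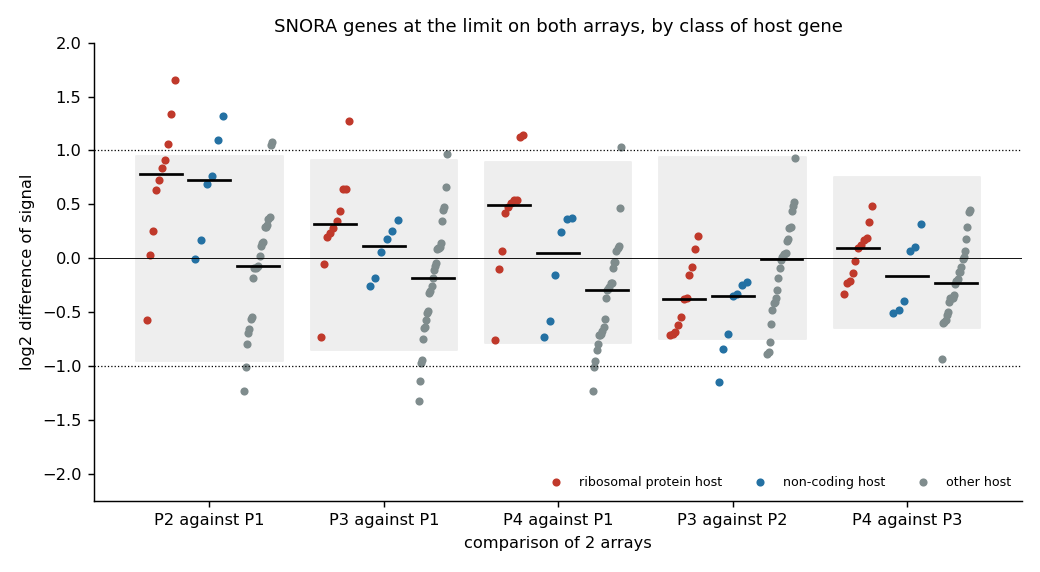
Each point is the log2 difference of 1 SNORA gene at the limit on both arrays, between the 2 arrays named on the x axis, coloured and placed by the class of its host; black bars are medians, the grey band holds the central 95% of all detected genes, and dotted lines mark 2-fold. In P2 against P1 the medians of ribosomal protein hosts (0.78) and non-coding hosts (0.72) lie above 0 and that of other hosts (-0.07) near it.

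Hosts were set beside their SNORA genes where both reached the limit on both arrays, which gave 29 pairs over 23 hosts in P2 against P1. The signs were the same in 17 pairs. Of these SNORA genes 7 differed by at least 2-fold, and none of the 23 hosts did, beside 2.18% higher and 2.19% lower over all detected genes, so that the absence of 2-fold hosts is near the share of all genes. Over all 29 pairs the SNORA difference was above that of the host in 18. In the 7 pairs with a ribosomal protein host, the SNORA median was 0.83 and the median of the 5 hosts -0.11. There the SNORA difference was above that of the host in 6. In the 18 pairs with other hosts the medians were 0.07 and -0.004, and it was above in 8. RPS2 read 23819 in P1 and 18821 in P2, a log2 difference of -0.34, where SNORA10 had 1.06. RPL27A read 22575 and 25363, a difference of 0.17, where SNORA3B had 1.65. In EEF1B2 a host difference of -0.14 stood beside 1.06 for SNORA41, and in ATP2B4 one of -0.08 beside 1.08 for SNORA77. The probes of RPL10 and GTF2A1 were under the limit on every array. Whether host signals of the height of RPS2 were saturated was not tested.

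Non-coding hosts gave 4 pairs with both members at the limit in P1 and P2. Their signs were the same in 2, and the SNORA difference was above that of the host in all 4. SNHG8 had a log2 difference of -0.12 between P2 and P1 beside 0.76 for SNORA24, and DANCR one of -0.48 beside 0.69 for SNORA26. SNHG7 had one of 0.38. SNORA17A of SNHG7 was under the limit in P1, so its 0.42 is a lower bound and closeness to the host cannot be read. SNHG12 read 81.4 in P1 and 153, 100 and 83.7 in P2, P3 and P4, a log2 difference of 0.91 between P2 and P1 beside 1.10 for SNORA61. EPB41L4A-AS1 read 2559 in P1 and 2872, 2324 and 2550 in P2, P3 and P4, a difference of 0.17 between P2 and P1 beside 1.32 for SNORA13. Outside the non-coding class, CWF19L1 read 2451 in P1 and 2207, 2542 and 2423 in P2, P3 and P4. The 2.34-fold lower SNORA12 signal in P2 thus stood beside a host log2 difference of -0.15.

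Host genes that themselves differed by at least 2-fold over the 4 arrays were RPL32P3, SNHG17, SNHG15 and SNHG9. RPL32P3, a ribosomal protein pseudogene that holds SNORA7B, was under the limit in P1 at 11.1 and read 153 in P2, at least 3.98-fold higher. SNORA7B read 402 in P1 and 378, 389 and 259 in P2, P3 and P4, with no such step. SNHG9 read 164 in P1 and 645, 388 and 363 in P2, P3 and P4, SNHG15 read 386, 1055, 289 and 653, and SNHG17 255, 517, 365 and 364. Each was highest in P2. SNORA78 of SNHG9 and SNORA9 of SNHG15 were undetected, and of the 4 SNORA71 genes in SNHG17 2 were detected, each on 1 array.

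Of the 14 detected members of the list of SNHG-type hosts (SNHG genes, GAS5, EPB41L4A-AS1 and the protein-coding TAF1D), 13 were above 0 in P2 against P1 and 4 at least 2-fold higher, beside 2.18% over all detected genes, and the median log2 difference was 0.53. Beside the 3 named above, the fourth was SNHG1, which read 2039.5 in P1 and 4426, 3208 and 3125 in P2, P3 and P4, 2.17-fold higher in P2. In P3 against P2, 13 of the 14 were below 0 with a median of -0.33. Over all detected genes 6241 of 11804 were above 0 in P2 against P1, and 6201 of 11776 were below 0 in P3 against P2. The P2 array is shared by both comparisons, so an error in its reading enters both with opposite sign. DANCR, a non-coding host outside that list, read 5238 in P1 and 3748, 3923 and 3953 in P2, P3 and P4, and went the other way in both comparisons. With DANCR in and TAF1D out, 12 of 14 were above 0 in P2 against P1 and 12 of 14 below 0 in P3 against P2. The ribosomal protein genes that host a SNORA gene had a median of -0.04 over 11 detected members in P2 against P1.

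**Figure D4:**
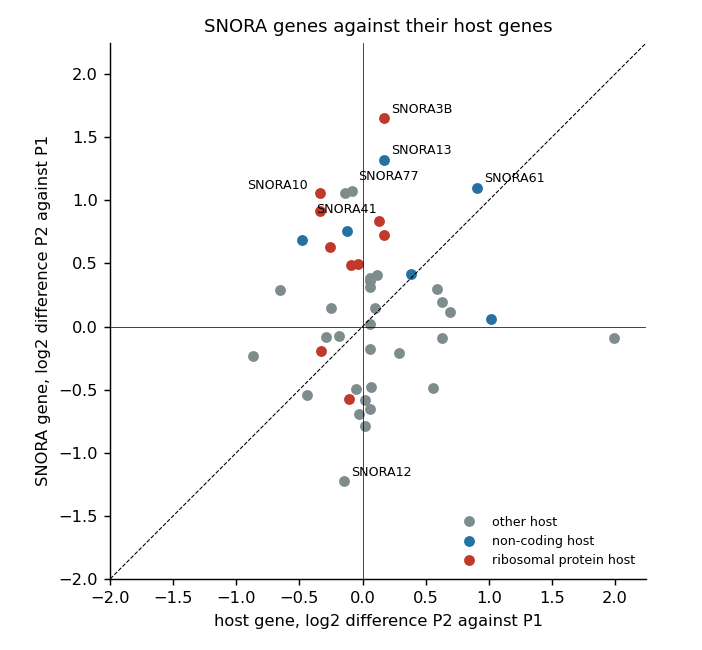
Each point sets the log2 difference of 1 SNORA gene between P2 and P1 (y axis) against that of its host gene (x axis), for the 45 pairs with both detected (values under the limit set to it), coloured by host class; the dashed line marks equal differences. Of the 45 pairs 26 lie above the line. SNORA61 lies near it. SNORA3B, SNORA13 and SNORA41 lie far above it with hosts near 0, and SNORA10 with its host at -0.34. SNORA12 and SNORA7B are among those far below it.

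Several hosts hold more than 1 detected SNORA gene. The RPS2 pair ran in parallel, since SNORA64 read 346 in P1 and 650, 398 and 503 in P2, P3 and P4, with a log2 difference of 0.91 between P2 and P1 beside 1.06 for SNORA10. In RPL27A, SNORA3A read 49.1 in P1 and 81.2, 76.8 and 65.6 in P2, P3 and P4, with the same order of arrays as SNORA3B and a smaller difference of 0.73. In RPSA, the gene of a ribosomal protein that also acts as a laminin receptor, SNORA6 stepped up from 301 in P1 through 359 and 382 to 430 in P4. SNORA62 of the same gene read 602 in P1 and 614, 707 and 561 in P2, P3 and P4, with no such order.

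TAF1D, which encodes a subunit of the selectivity factor of RNA polymerase I, holds 6 SNORA genes of the array, of which 5 were detected. Its own probe varied little, at 145 in P1 and 151, 136 and 143 in P2, P3 and P4. SNORA18 read 683 in P1 and 891, 728 and 666 in P2, P3 and P4, a 1.30-fold difference between P2 and P1. SNORA25 read 442 in P1 and 547, 296 and 362 in P2, P3 and P4, and SNORA8 read 322, 414, 226 and 178 in the same order of groups, 2.33-fold from its highest to its lowest array. SNORA1, which read 42.5 in P2, lay just above the limit in P1 and P2 and under it in P3 and P4. SNORA18, SNORA25 and SNORA8 were highest in P2, whereas SNORA32 was highest in P1. The probe signals of SNORA genes in this host thus did not follow one order on these single arrays. Whether the mature RNAs differed in this way was not tested.

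SNORA73A and SNORA73B, the U17 snoRNAs of SNHG3, act in cleavage of the ribosomal RNA precursor rather than as guides of pseudouridine. SNORA73A read 547 in P1 and 543, 459 and 329 in P2, P3 and P4, a log2 difference of -0.73 between P4 and P1. SNORA73B was the one SNORA gene with more than 1 probe, and its brighter probe read 574 in P1 and 645, 506 and 385 in P2, P3 and P4. The dimmer probe gave 562, 494, 474 and 349, so all 3 probes were lowest in P4, by less than 2-fold from P1. These RNAs are near-identical copies and their probes may share signal, and the SNHG3 probe was under the limit on every array.

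**Figure D5:**
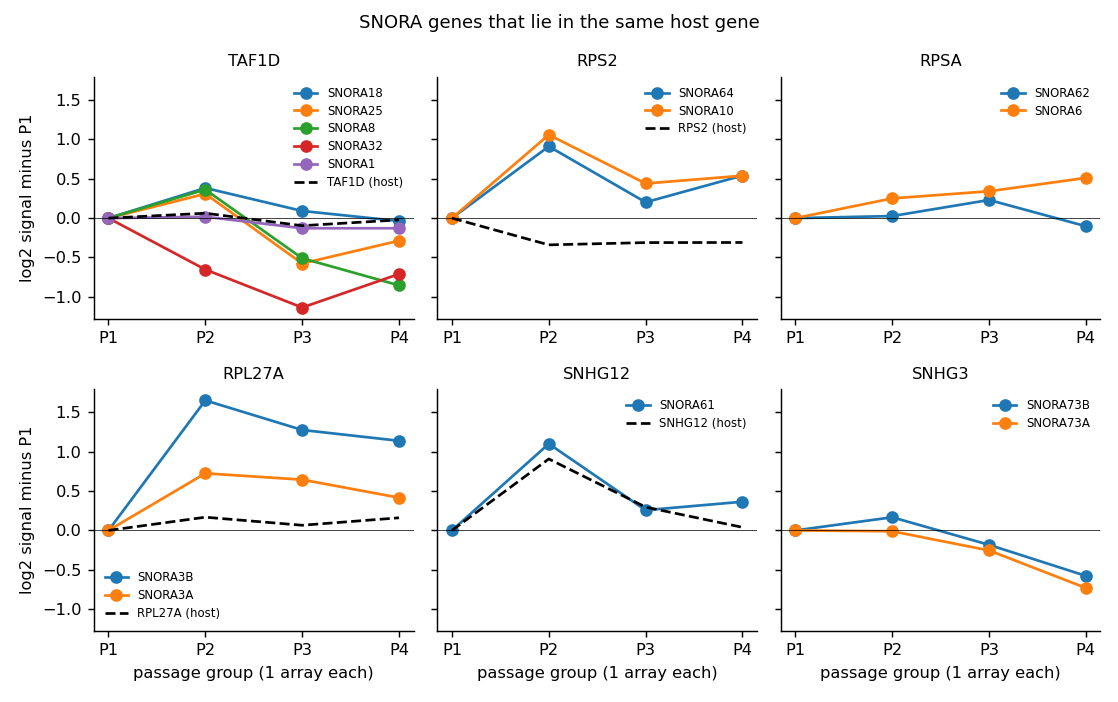
Each panel shows the log2 signal minus the value in P1 for the detected SNORA genes of 1 host gene, by passage group with 1 array each; the dashed line is the host's own probe where it was detected. The RPS2 genes run together above their host. SNORA61 runs with SNHG12 through P3 and lies above it in P4. The TAF1D genes spread from SNORA18 near 0 to SNORA32 and SNORA8 below 0 in P4.

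At the other end, SNORA67, from the initiation factor gene EIF4A1, was the steadiest gene detected on all 4 arrays. It read 1432 in P1 and 1362, 1520.5 and 1533 in P2, P3 and P4, 1.13-fold from lowest to highest. Of the 39 SNORA genes at the limit on all 4 arrays, 5 stepped in one direction through the 4 groups. SNORA6 stepped up, and SNORA73A, SNORA59A, SNORA7A and SNORA29 stepped down. Over all genes at the limit on all 4 arrays, 4.46% stepped up and 5.17% down. SNORA29, from the chaperonin gene TCP1, read 117 in P1 and 80.1, 60.5 and 60.3 in P2, P3 and P4. SNORA7A, from RPL32, read 143 in P1 and 95.7, 85.8 and 84.1 in P2, P3 and P4, so that most of both decreases lay between P1 and P3.

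The proteins of the H/ACA particle differed by less than 2-fold between passage groups. DKC1 read 6166 in P1 and 6471, 6051 and 6712 in P2, P3 and P4, and NHP2 6242, 6049, 6277 and 6552. NOP10 read 7533, 9977, 8155 and 8826, and GAR1 2525, 2973, 2437 and 2656. None of the 4 was at least 2-fold higher or lower in any of the 5 comparisons, which among so few is near the share of all genes (2.18% higher and 2.19% lower in P2 against P1). Their median log2 difference in P2 against P1 was 0.15. NOP10 and GAR1 were highest in P2, by 1.32-fold and 1.18-fold over P1.

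Of 9 assembly factors of the particle, among them NAF1 and SHQ1, none reached 2-fold in any comparison. SHQ1, which holds dyskerin before assembly, read 335 in P1 and 330, 327 and 184 in P2, P3 and P4. None of 13 genes for processing and export of snoRNA ends, among them the deadenylase PARN and the exosome nuclease EXOSC10, reached 2-fold either, nor did any of 4 core proteins and 4 assembly factors of the related box C/D particle, all near the share of all genes. TERC, the telomerase RNA, which carries an H/ACA domain bound by the same proteins, read 75.8 in P1 and 34.1, 89.9 and 55.5 in P2, P3 and P4. It was under the limit in P2, and at least 2.34-fold higher in P3 than in P2.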

How the data were processed

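Biotin-labelled cRNA of 4 H9 passage groups was read on Illumina bead arrays, per the labels' protocols; the scanner software and normalization are not given in the sources used here. What was deposited are linear probe intensity values, 47323 per array. Between 25.2% and 25.4% of each array lay below 0 and the medians were 17.4 to 17.5, so background subtraction and scaling by the authors are inferred from the values. The arrays were quantile normalized again, floored at the 60th percentile (38.4) and log2 transformed, and a gene was read by its probe with the highest mean. Probes were named through the platform annotation, updated by Entrez identifier to RefSeq symbols (30113 probes with 1 symbol). Y-linked genes and X-inactivation centre transcripts were left out. Log2 differences were taken in 5 pairs of arrays, with 2-fold as the rule; folds against a value under the floor are lower bounds. Named are SNORA genes at least 2-fold apart over the arrays, the 6 of highest mean signal, genes with several probes and hosts of these; members of the lists at least 2-fold apart; other SNORA genes, named for a shared host or a steady order of arrays, were chosen after their values were seen. Members, lists and classes were chosen with earlier results of these data known. Hosts were meant to be matched by strand; the table gives none. The calculation was tested on simulated data. Python 3.11.15, numpy 2.4.6 and pandas 2.3.3 were used. The number of arrays limits the precision. Alternatives changed the normalization, floor, offset and probe choice.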

Additional observations from a re-analysis of the deposited data

How the results depend on the processing

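No paired analysis was possible because each passage group has 1 array. Of 80 recomputed counts and medians of the SNORA genes, 66 stayed close to the reported value (counts within 1.5 times, medians within 0.1 log2 units), none changed sign, and 14 moved, all under another floor or an offset. The values as deposited, median centring, counting every probe and the probe with the lowest mean moved none, nor did keeping only genes at the limit on both arrays, an alternative chosen after seeing the data. The number at least 2-fold different in P2 against P1 was 10, and became 18 with floor and limit at the 50th percentile. It became 4 at the 75th, and 5 when 50 units were added instead of a floor. In the same order it went from 3 to 7, 0 and 0 in P3 against P1, from 6 to 10, 2 and 2 in P4 against P1, and from 1 to 5, 0 and 0 in P3 against P2. In P4 against P3 it went from 0 to 2 at the 50th percentile. The median in P2 against P1 was 0.25 at the 75th percentile, where 23 genes were left. Of the 20 single differences, 13 fell under 2-fold with the offset, and at the 75th percentile 12 were no longer detected and 2 fell under 2-fold. A higher floor removes genes by construction, and an offset shrinks folds of low signals. Low signal limits these results, since 42 of 101 SNORA genes were under the limit and single arrays give no error.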
